A study of Mus musculus with 4 samples.

Results

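The genes of the circadian clock were read in 4 mouse RNA libraries of sorted dendritic cells (DCs), the antigen-presenting cells that express CD11c. The set held 10 genes, Arntl, Clock, Per1, Per2, Per3, Cry1, Nr1d1, Nr1d2, Dbp and Tef, chosen by symbol out of 46078 genes counted, and each symbol matched 1 Ensembl gene. The 2 control libraries (Ctrl) came from mice with the CD11c-cre transgene alone, and the 2 Il33flx libraries from CD11c-cre-Il33flx/flx mice, in which Cre made under the CD11c promoter can act on Il33 in DCs and some other myeloid cells. All mice had been injected with EL4-Flt3 tumour cells, derived from the T lymphoma line EL4, 10 days earlier. Cells of spleen plus mesenteric lymph node were sorted as CD45+, CD64-, CD11b+, MHCII+ and CD103+. The hour at which the mice were killed, the age, strain and sex of the mice, and any pooling of animals into a library are not stated in the sources used here. A p-value here thus speaks only to the spread among the 4 libraries, and part of that spread may be technical.

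The clock is a feedback loop of transcription that runs in nearly every mammalian cell, DCs included. The proteins of Clock and Arntl (also called BMAL1) pair up and bind E-boxes, and so drive the Per and Cry genes, whose proteins return to the nucleus and repress the pair. The same pair drives Nr1d1 and Nr1d2, which encode the REV-ERB repressors that act on Arntl through ROR elements (ROREs), and it drives Dbp and Tef, activators that bind D-boxes in genes such as Per3. In rhythmic tissue Arntl therefore peaks when Dbp, Nr1d1 and the Per genes are low, so that samples taken at different hours differ in opposite directions in these arms. This is why the genes are read here library by library.

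These elements are shown first, since they tie the members to each other. RefSeq promoter windows on GRCm38.p6, from 250 bases before to 50 bases after a start site, matched 9 of the 10 genes, all but Per2, with 14 windows. Both strands were searched for the E-box CACGTG, the D-box TTATGTAA (TTACATAA on the other strand), the ROR core TAGGTNA and the cyclic AMP response element TGACGTCA, of which none contains another. The E-box was found in 4 of the 14 windows, belonging to Per1, Cry1 and Tef, and in 7.15% of all 32851 windows in the table. The D-box was found in 1 of the 14, that of Per3, with 2 copies, and in 0.938% of all windows. The ROR core was found in 2 of the 14, which overlap each other at the start of Arntl, and in 8.29% of all windows. The cyclic AMP element was found in 0 of the 14 and in 1.79% of all. A match describes letters and not a site in use. The runs below are written 5′ to 3′ on the gene's strand, with the motif in capitals. The first 4 show E-boxes, the fifth the D-box pair of Per3 and the last 2 the ROR cores of Arntl.
Per1, chr11:69098753-69098818, plus strand: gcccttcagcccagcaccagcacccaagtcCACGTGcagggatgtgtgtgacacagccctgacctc
Cry1, chr10:85185079-85185144, minus strand: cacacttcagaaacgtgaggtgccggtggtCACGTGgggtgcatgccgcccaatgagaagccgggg
Tef, chr15:81811246-81811311, plus strand: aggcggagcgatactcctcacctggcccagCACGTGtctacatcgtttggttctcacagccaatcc
Tef, chr15:81802534-81802563, plus strand: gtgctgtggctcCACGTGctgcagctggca
Per3, chr4:151044786-151044900, minus strand: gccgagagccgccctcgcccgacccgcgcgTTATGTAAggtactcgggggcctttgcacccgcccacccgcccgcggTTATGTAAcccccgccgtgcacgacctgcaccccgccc
Arntl, chr7:113207494-113207522, plus strand: tggtcggaaagTAGGTTAgtggtgcgaca
Arntl, chr7:113207530-113207558, plus strand: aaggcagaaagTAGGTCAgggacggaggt

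Library totals were 67707682 to 81217828 gene counts. The targeted gene, Il33, had 4 and 8 counts in Ctrl 1 and Ctrl 2, and 4 and 0 counts in Il33flx 1 and Il33flx 2, so its counts cannot check the labels. Of the gate, Itgae (CD103) read 56.8 to 116 CPM (read counts scaled to a common library size with TMM), Itgam (CD11b) 97.8 to 128 CPM and Fcgr1, the gene of the excluded CD64, 3.66 to 5.50 CPM. Ctrl 1 stood apart: over 14995 genes r of log2 CPM was 0.981 to 0.983 for its pairs with the rest, against 0.991 to 0.993 for pairs of the other 3. Its summed level of 10 mature DC markers was 3369 CPM, and 2132 to 2308 CPM in the other 3. The fold change of Clock and the median of the other clock genes changed sign without it, and both values are given below.

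No clock gene was called different between Il33flx and Ctrl. In edgeR's quasi-likelihood test over 14995 genes, 0 of the 10 passed an adjusted p of 0.05, and 0 of the 10 had an unadjusted p under 0.05. DESeq2 and limma-voom also called 0 of the 10, and DESeq2 gave 0 an unadjusted p under 0.05. The background was as low, since edgeR called 0.00667% of all genes and gave 3.26% an unadjusted p under 0.05. Fold changes ran from -0.50 for Nr1d2 to 0.77 for Per2 on the log2 scale, with 6 positive and 4 negative and a median of 0.035, beside 0.014 over all genes tested. That median was -0.17 without Ctrl 2 and -0.090 without Il33flx 1. The intervals were wide: the 95% interval lay within -1 to 1, which is a 2-fold change either way, for 5 of the 10 genes (Per1, Tef, Arntl, Clock and Cry1). In these bulk samples, fewer cells of a type and less RNA per cell cannot be told apart.

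**Figure D1:**
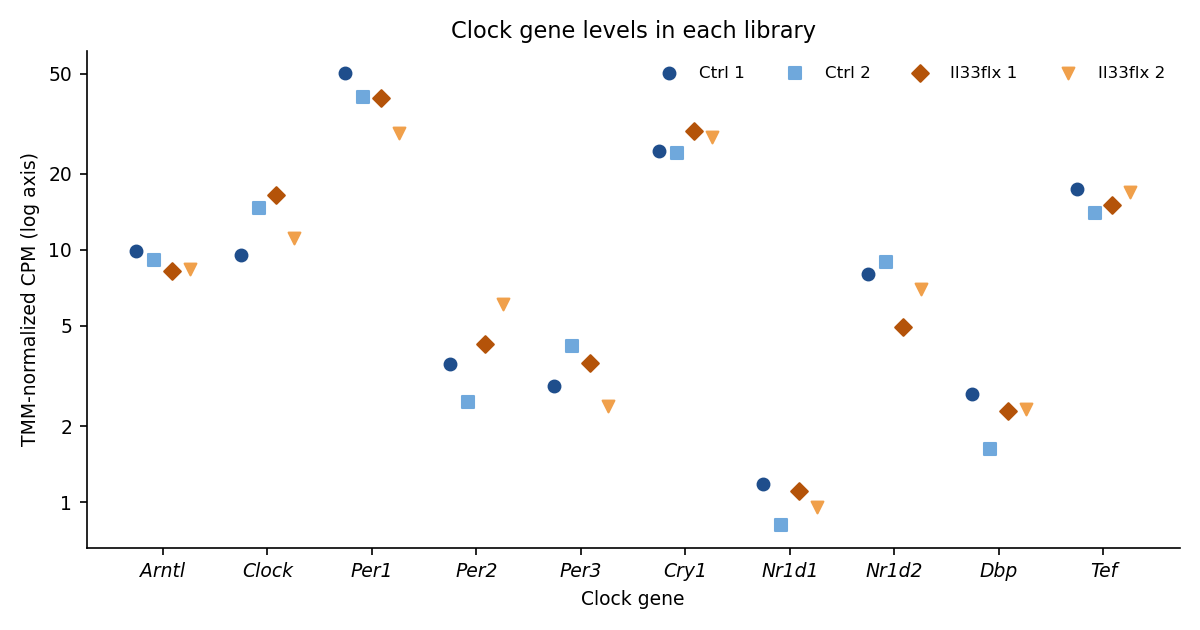
TMM-normalized CPM on a log axis for the 10 clock genes, 1 point per library (2 Ctrl, 2 Il33flx). Per1 reached from 29.1 to 50.1 CPM and Nr1d1 from 0.811 to 1.19 CPM, and both Il33flx points lay above both Ctrl points for Per2 and Cry1 alone.

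Levels were compared between genes only per length, as RPKM (CPM per kilobase of exon). Cry1 was highest at a mean of 7.97 RPKM over the 4 libraries, followed by Per1 at 7.09, and their ranges overlapped (7.22 to 8.85 and 5.17 to 8.90 RPKM). Tef followed at 2.02 RPKM, apart from Per1 above it and from Nr1d2 below it. Nr1d2 stood at 1.34 RPKM. From there on, Arntl at 1.19, Clock at 0.944, Dbp at 0.748, Per2 at 0.697, Per3 at 0.338 and Nr1d1 at 0.330 RPKM each overlapped the gene above in the order. Dbp and Nr1d1 were below Arntl in every library. The order of different genes gives no time of day, and exons of both overlap a gene on the opposite strand, as given below.

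Of the activators, Arntl (ENSMUSG00000055116, GRCm38 chromosome 7, 113207465 to 113314126, plus strand) read 9.93 and 9.16 CPM in Ctrl 1 and Ctrl 2, and 8.27 and 8.41 CPM in Il33flx 1 and Il33flx 2. Both Il33flx libraries were below both Ctrl libraries, by a small margin (log2 fold change -0.19, 95% interval -0.77 to 0.38, adjusted p = 0.995, edgeR). Clock (ENSMUSG00000029238, chromosome 5, 76209868 to 76304792, minus strand), whose protein is the partner of BMAL1, read 9.51 and 14.7 CPM in Ctrl 1 and Ctrl 2, and 16.6 and 11.1 CPM in Il33flx 1 and Il33flx 2. The groups overlapped fully, with 1 low and 1 high library in each. Its log2 fold change was 0.20 (-0.57 to 0.97, adjusted p = 0.995, edgeR) with all libraries and below 0 without Ctrl 1 (-0.07) or without Il33flx 1 (-0.12).

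Among the Per genes, which encode repressors of the loop, Per1 and Per2 lay in opposite directions. Per1 (ENSMUSG00000020893, chromosome 11, 69095217 to 69109960, plus strand) read 50.1 and 40.5 CPM in Ctrl 1 and Ctrl 2, and 40.1 and 29.1 CPM in Il33flx 1 and Il33flx 2. The groups were separated by the small gap between Ctrl 2 and Il33flx 1, which closed with scaling to library size alone. The log2 fold change was -0.39 (-0.97 to 0.19, adjusted p = 0.995, edgeR), and -0.24 ± 0.37 SE for Per3 (ENSMUSG00000028957, chromosome 4, 151003652 to 151044665, minus strand). Per3 read 2.88 and 4.16 CPM in Ctrl 1 and Ctrl 2, and 3.56 and 2.40 CPM in Il33flx 1 and Il33flx 2, so that its groups overlapped.

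Per2 (ENSMUSG00000055866, chromosome 1, 91415982 to 91459324, minus strand) had the largest fold change of the set. Its 272 and 187 counts in the Ctrl libraries corresponded to 3.54 and 2.49 CPM, and its 298 and 431 counts in the Il33flx libraries to 4.22 and 6.09 CPM. Both Il33flx libraries were higher, at 5.15 ± 1.32 CPM against 3.02 ± 0.748 CPM (SD, n = 2 each), and the difference did not pass (log2 fold change 0.77 ± 0.36 SE, 95% interval -0.08 to 1.63, unadjusted p = 0.0691, adjusted p = 0.995, edgeR). Libraries of the same group also differed, by a factor of 1.43 for Ctrl 1 over Ctrl 2 (exact 95% counting interval 1.18 to 1.73). The counting interval covers counting error only, since PCR copies are not independent molecules.

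Cry1 (ENSMUSG00000020038, chromosome 10, 85131700 to 85185064, minus strand), the cryptochrome repressor that joins the PER proteins, differed little within groups. The Ctrl libraries read 24.7 and 24.1 CPM, the Il33flx libraries 29.6 and 28.1 CPM, and the counting intervals of both within-group ratios included 1. Il33flx was higher in both libraries, by a log2 fold change of 0.24 ± 0.19 SE (-0.23 to 0.71, adjusted p = 0.995, edgeR).

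The REV-ERB genes Nr1d1 and Nr1d2 differed in level and in pattern. Nr1d2 (ENSMUSG00000021775, chromosome 14, 18204054 to 18239127, minus strand) read 8.05 and 8.92 CPM in Ctrl 1 and Ctrl 2, and 4.97 and 7.0 CPM in Il33flx 1 and Il33flx 2. Both Il33flx libraries were lower, Il33flx 1 most (log2 fold change -0.50 ± 0.29 SE, -1.20 to 0.19, adjusted p = 0.995, edgeR). Nr1d1 (ENSMUSG00000020889, chromosome 11, 98767932 to 98775333, minus strand) had only 91, 61, 78 and 68 counts in Ctrl 1, Ctrl 2, Il33flx 1 and Il33flx 2. Its groups overlapped with a Ctrl mean of 0.998 ± 0.265 CPM and an Il33flx mean of 1.03 ± 0.102 CPM (SD, n = 2 each). Exons of Nr1d1 share 263 bases with Thra, the thyroid hormone receptor alpha gene on the opposite strand, which read 0.585 to 1.34 CPM. The strand setting of the counting was not given. In the 4 libraries 2.62% to 2.74% of counted reads were set aside as ambiguous. Whether reads of the shared bases are among them, which would lower the level of Nr1d1, cannot be told.

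The D-box activators Dbp and Tef showed no separation of the groups. Dbp (ENSMUSG00000059824, chromosome 7, 45705088 to 45710203, plus strand) read 2.68 and 1.62 CPM in Ctrl 1 and Ctrl 2, and 2.31 and 2.34 CPM in Il33flx 1 and Il33flx 2. The Ctrl libraries bracketed both Il33flx libraries, with Ctrl 1 a factor of 1.65 above Ctrl 2 (exact counting interval 1.32 to 2.09), and the log2 fold change of 0.11 had an interval of -0.83 to 1.05. Dbp shares 539 exon bases with Sphk2, a sphingosine kinase gene on the opposite strand that read 50.6 to 67.9 CPM. The limit given for Nr1d1 and Thra holds for this pair too. Tef (ENSMUSG00000022389, chromosome 15, 81802421 to 81826863, plus strand), which encodes a close relative of DBP, read 17.5, 14.0, 15.1 and 16.9 CPM in the same order of libraries. Its log2 fold change was 0.02 (-0.53 to 0.58), and adjusted p was 0.995 for Dbp and 1.0 for Tef in edgeR.

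**Figure D2:**
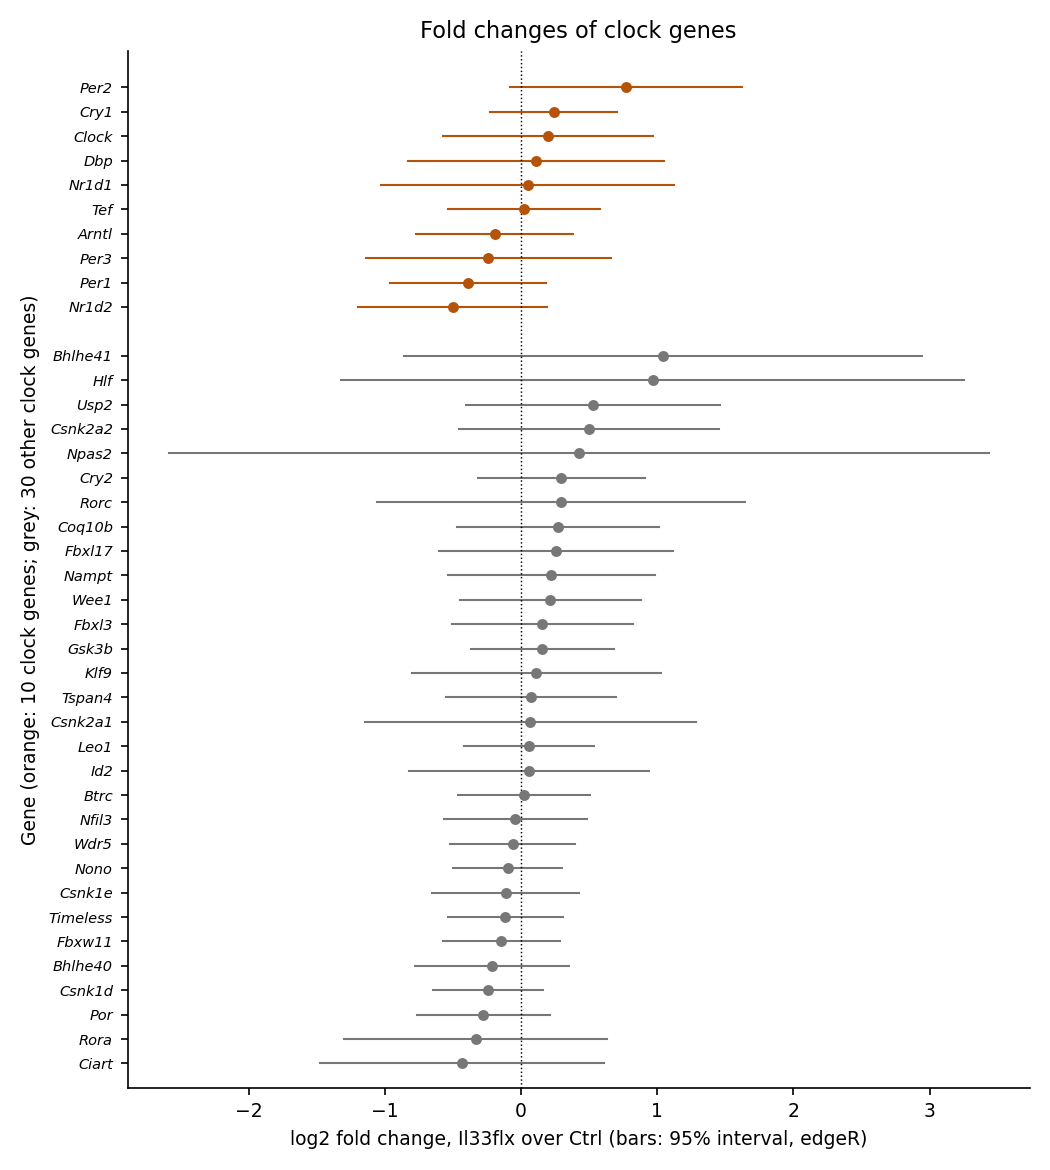
Log2 fold change of Il33flx over Ctrl with its 95% interval from edgeR for the 10 clock genes (orange) and the 30 other clock genes that were tested (grey). Every interval in the plot includes 0, and those of Npas2 and Hlf are widest.

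Groups lay fully apart for 5 of the 10 members, Per2 and Cry1 higher in Il33flx and Per1, Nr1d2 and Arntl lower. Over all genes tested, 15.4% were higher in both Il33flx libraries and 14.9% lower, 30.3% in either direction. With scaling to library size alone these shares were 21.4% and 10.1%, and Per1 left the lower members. The genes with an E-box match in a promoter window did not share a direction, with log2 fold changes of -0.39 for Per1, 0.24 for Cry1 and 0.02 for Tef. A match is not a site in use, and Per2 had no window. No permutation test of a single value was run, because 2 libraries against 2 allow no two-sided p smaller than 0.333.

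Differences within a group were as large as those between groups for most members. For 6 of the 10, the larger of the 2 within-group gaps in log2 CPM exceeded the gap between the group means. This count was not made over all genes, and a gap between single libraries varies more than a gap between means. Between the Ctrl libraries the counting interval of the ratio excluded 1 for 7 of the 10 members. Between the Il33flx libraries it did so for 6 of the 10. That interval treats each read as an independent molecule and may be too narrow. Neither count was made over all genes. The highest library was a factor of 1.2 (Arntl) to 2.45 (Per2) above the lowest, with a median of 1.69 over the members. The same median was 1.53 over 14794 tested genes with counts in every library, many of them more abundant than these.

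The libraries were then compared across the arms of the loop, as a description and with no test. The E-box-driven arm was taken as Per1, Per2, Per3, Dbp, Tef, Nr1d1 and Nr1d2, and the opposite arm as Arntl, Clock and Cry1. Cry1 is itself driven through E-boxes, but it is also repressed through ROREs and is known to peak later than the Per genes, and for this it was set with Arntl. After each gene was centred on its mean over the 4 libraries, the median of the E-box-driven arm on the log2 scale was 0.19 and -0.17 in the Ctrl libraries (1, then 2) and 0.07 and -0.01 in the Il33flx libraries. For the opposite arm it was -0.10, 0.04, 0.16 and -0.08 in the same order. The difference between the arms was largest in Ctrl 1, at 0.29, and lowest in Ctrl 2, at -0.21, with -0.09 in Il33flx 1 and 0.07 in Il33flx 2 between them. With Cry1 counted among the E-box-driven genes instead, an alternative added after the values were seen, the differences were 0.29 and -0.28 in Ctrl and -0.05 and 0.17 in Il33flx. Under both placements the widest gap between libraries was within the control group. The arms themselves were not uniform: in Ctrl 1, 5 of the 7 E-box-driven genes stood above their mean, while Per2 and Per3 stood below. Between the Ctrl libraries, Per1, Per2, Dbp, Tef and Nr1d1 were higher in Ctrl 1, and Per3 and Nr1d2 in Ctrl 2.

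**Figure D3:**
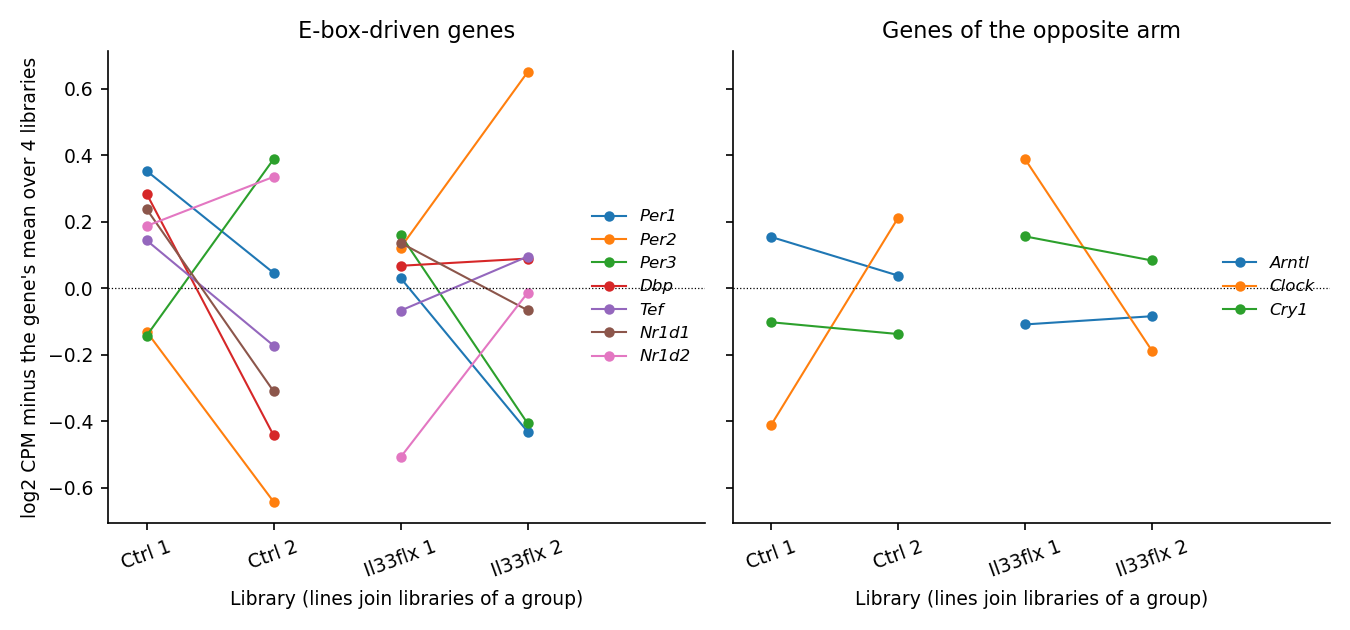
Log2 CPM of each clock gene minus its mean over the 4 libraries, for the E-box-driven genes (left) and the opposite arm (right), with lines joining the 2 libraries of a group. Lines cross in both groups, and the medians of the left panel run only from -0.17 to 0.19.

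Ratios of read counts between related genes do not depend on library scaling. The pairs were chosen after their values were seen, and no test was made. The ratio of Per2 to Per1 was 0.0707 in Ctrl 1 (exact counting interval 0.0623 to 0.0800), 0.0614 in Ctrl 2 (0.0527 to 0.0712), 0.105 in Il33flx 1 (0.0931 to 0.119) and 0.209 in Il33flx 2 (0.188 to 0.232). Both Il33flx values lay above both Ctrl values, and Il33flx 2 stood well above Il33flx 1. That separation follows from Per2 being higher and Per1 lower in both Il33flx libraries, so it is not a separate result. The ratio of Nr1d1 to Nr1d2 was 0.147 and 0.0909 in Ctrl and 0.222 and 0.137 in Il33flx, so the groups overlapped. The ratio of Cry1 to Cry2 ran from 1.96 to 2.61, both in Ctrl, and that of Dbp to Tef from 0.116 to 0.154, also both in Ctrl.

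**Figure D4:**
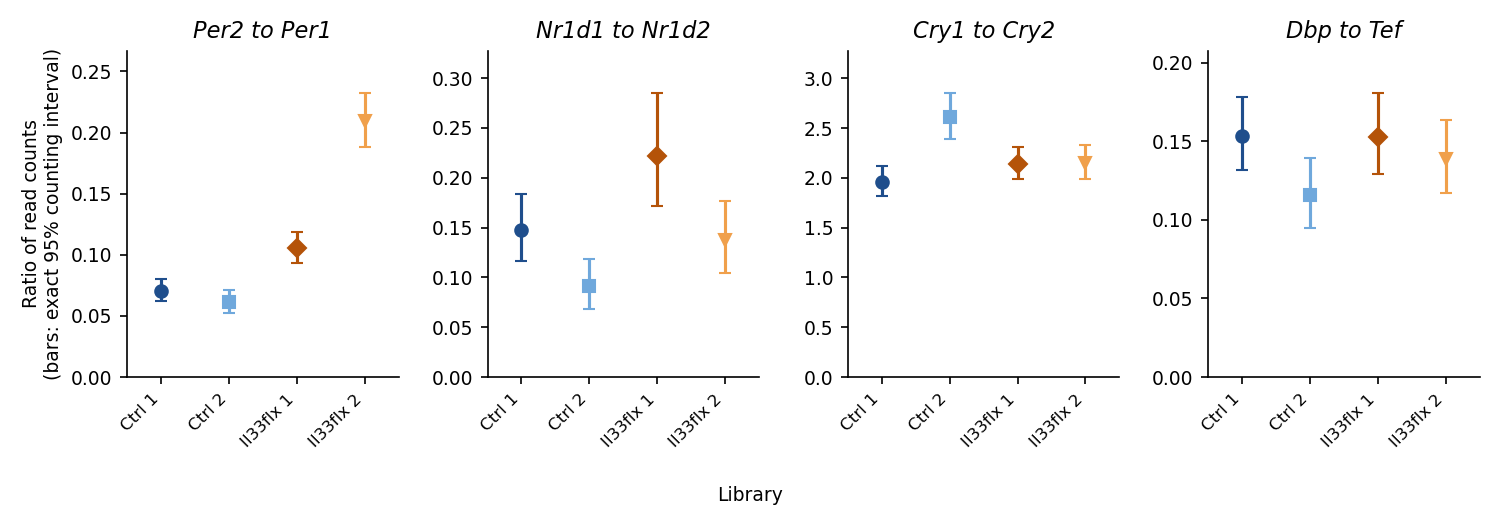
Ratio of read counts between 4 pairs of related clock genes in each library, with exact 95% counting intervals, on linear axes from 0. The Per2 to Per1 ratio is 0.0614 to 0.0707 in Ctrl and 0.105 to 0.209 in Il33flx, which follows from the levels of Per2 and Per1 themselves. The Ctrl libraries span the Il33flx values for Cry1 to Cry2.

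Of 35 other genes of the clock and its outputs, 30 were tested and 0 passed in either direction (edgeR, with 0 at an unadjusted p under 0.05, and 0 called by DESeq2 or limma-voom). Their median log2 fold change was 0.07, with 19 positive and 11 negative, and it was -0.03 without Ctrl 1. Groups were apart for 4 higher genes, Bhlhe41, Cry2, Usp2 and Klf9, and for 4 lower ones, Ciart, Timeless, Nono and Csnk1d. Of all genes tested, 30.3% lay apart in either direction. Cry2, the second cryptochrome, read 12.6, 9.25, 13.8 and 13.1 CPM in Ctrl 1, Ctrl 2, Il33flx 1 and Il33flx 2 (log2 fold change 0.30 ± 0.25 SE). Csnk1d, a kinase that marks PER proteins for turnover, read 387, 344, 315 and 303 CPM (-0.24 ± 0.17 SE), and Usp2, a deubiquitinase gene under clock control, 1.21, 1.05, 1.63 and 1.64 CPM (0.53 ± 0.39 SE). Ciart, a repressor that acts on the CLOCK pair, read 1.94, 1.95, 1.02 and 1.86 CPM, low in Il33flx 1 alone (-0.43 ± 0.43 SE). Por, the cytochrome P450 reductase gene, and Csnk2a2, a casein kinase 2 subunit gene, had log2 fold changes of -0.28 ± 0.20 and 0.50 ± 0.40 SE. The adjusted p of each of these genes was 0.995 in edgeR.

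The other transcription factors of the loop differed widely in level. Nfil3, the D-box repressor that is also needed for type 1 DC development, stood at 28.8 RPKM, far above the D-box activators, and read 68.4, 49.8, 58.2 and 56.7 CPM in the 4 libraries. Its log2 fold change was -0.04 ± 0.22 SE (adjusted p = 1.0, edgeR). Npas2, which can replace CLOCK, was near absent with 12, 4, 1 and 19 counts, and the D-box activator gene Hlf had 6, 12, 27 and 6. Rora, an activator at ROREs, read 1.49 to 2.75 CPM (-0.33 ± 0.40 SE), and Bhlhe41, an E-box repressor, had 6 to 19 counts. The Arntl paralog Arntl2 and Rorb had 1 count each over all libraries, and with Fbxl21, Lonrf3 and Cys1 they did not pass the filter on low counts.

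Per1 is also induced by glucocorticoids and within minutes of cell stimulation, so genes of both responses were set beside it. Fkbp5, a co-chaperone gene induced by glucocorticoids, read 75.4 and 92.3 CPM in Ctrl 1 and Ctrl 2, and 50.6 and 46.3 CPM in Il33flx 1 and Il33flx 2. The edgeR log2 fold change was -0.79 ± 0.20 SE (adjusted p = 0.995, unadjusted p = 0.00585). Like Per1 it was lower in both Il33flx libraries, but Ctrl 2 was its highest library. Tsc22d3, a second such gene, read 231, 444, 285 and 319 CPM, and its groups overlapped. Of the 10 listed glucocorticoid response genes 9 were tested and 0 passed in edgeR, limma-voom or DESeq2, with 1 (Fkbp5) at an unadjusted p under 0.05. They were 2 positive and 7 negative, with a median of -0.16. Fkbp5, Zbtb16 and Klf13 (3 of the 9) were lower without overlap and 0 were higher, beside 14.9% and 15.4% of all genes tested. Of 13 immediate early genes 0 passed in any of these tools (0 unadjusted in edgeR), and 10 were positive. Egr1, Ier2 and Nr4a1 (3 of the 13) were higher without overlap and 0 were lower, beside the same 15.4% and 14.9% of all genes tested. The summed level was 6981, 8113, 7538 and 9212 CPM in Ctrl 1, Ctrl 2, Il33flx 1 and Il33flx 2. The part of either response in the Per1 values was not tested.

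Markers of other cell types were read in the same libraries. Over all genes tested, 15.4% were higher in both Il33flx libraries and 14.9% lower. All 10 B cell markers were higher in both Il33flx libraries, with summed levels of 62.7 and 64.6 CPM in Ctrl and 134 and 112 in Il33flx, and none was at 0. Of 10 erythroid markers 9 were tested and 7 were higher without overlap, from sums of 6.75 and 6.43 to 36.5 and 15.2 CPM, with Slc4a1 and Klf1 at 0 in Ctrl 1. Of 10 neutrophil markers 5 were higher without overlap (358 and 325 against 626 and 442 CPM). Of 10 T cell and EL4 markers 5 were lower without overlap, though their sums overlapped (184 and 132 against 147 and 114 CPM). Of 10 mature DC markers 9 were negative and 1 was lower without overlap, with a median log2 fold change of -0.50. Of the conventional DC markers 3 of 11 were lower without overlap, and their sums overlapped (90732 and 72227 against 69285 and 79817 CPM). The 10 macrophage and monocyte markers had 0 apart, and their sums overlapped at 1294 to 1575 CPM. Of 7 NK cell markers 6 were tested and 2 were higher without overlap, with sums of 7.51 to 11.7 CPM. In these lists 0 genes passed in edgeR or limma-voom. DESeq2, which called 0.255% of all genes it tested, called 3: Pax5 and Cr2 of the B cell list and Car1 of the erythroid list, named after their values were seen. Unadjusted edgeR p-values were under 0.05 for 7 B cell, 6 erythroid, 4 neutrophil and 1 conventional DC marker, beside 3.26% of all genes tested. The part of these cells in the clock gene values was not tested.

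The genes whose pattern over the 4 libraries was most like that of Dbp and Arntl were taken from 8968 protein-coding genes of at least 5 CPM, by the root mean square difference of centred log2 (CPM + 0.5). For Dbp these were Map3k14 (0.011), Abcc10 (0.022) and Efcc1 (0.022), and for Arntl they were Ppp1r10, Med25 and Bpnt1 (0.0031 each). With 4 libraries such closeness is a description of these samples only.

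In the authors' deposited table, 0 of the 10 clock genes had an adjusted p under 0.05, beside 0.34% of its 15001 genes. Its log2 fold changes were 0.75 for Per2, -0.53 for Nr1d2 and -0.41 for Per1, each with an adjusted p of 1.0. In the same authors' deposited table Tef had -0.00089, below 0, where edgeR gave 0.02.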

How the data were processed

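Per the labels' protocols, Qiagen columns gave the RNA of the sorted cells and TruSeq mRNA (Illumina) the libraries. The tools named in the submitters' processing notes are HTSeq, STAR, DESeq2 and Trimmomatic 0.39, and the build is GRCm38. Other versions, the annotation release and the strand setting are not given in the sources used here. The deposited counts per gene were whole reads that the authors had not normalized, and 69.9% to 72.2% of counted reads were in genes. In the authors' deposited table, the signal columns were counts divided by 1 size factor per library, the log2 columns the fold change and its standard error, the score column the Wald statistic, and the p-value columns unadjusted and adjusted p.

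Counts were fitted with edgeR 4.0.16 in R 4.3.3 (filterByExpr, TMM factors, quasi-likelihood F test, no covariate), and 14995 genes were tested with Benjamini-Hochberg adjustment at 0.05. A standard error is the size of the log2 change over the root of its F statistic. CPM uses TMM-scaled library sizes, and RPKM the union of GENCODE M21 exons. DESeq2 1.42.0 and limma 3.58.1 (voom), other scalings and filters, a replicate block and leaving out each library were alternatives. The procedure was tested on simulated data.

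The members and gene lists were chosen with earlier results of these data known. Named beside the members were the 8 other clock genes with the smallest p, plus Cry2, Npas2, Rora and Nfil3 (11 in all, since Cry2 came under both), the genes most like Dbp and Arntl, and Fkbp5 and Tsc22d3. Genes apart between groups were named after their values were seen, and Csnk2a1 was named outside these rules.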

Additional observations from a re-analysis of the deposited data

How the results depend on the processing

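The count of clock genes called was 0 of 10 and of the other clock genes 0 of 35 in edgeR with all libraries and under all 11 alternatives. Of 110 values for the members, 100 kept their direction and 0 crossed the threshold, with a smallest adjusted p of 0.292. Over all genes, edgeR called 1, DESeq2 called 49, the replicate block called 33, and scaling to library size alone, limma-voom and no filter on low counts called 0 each. Leaving out 1 library gave 0 to 36 calls (36 without Ctrl 1, 29 without Il33flx 1, 0 without Ctrl 2), and the cause was not tested. Deviations of same-numbered libraries from their group means had r = -0.085 over 14995 genes. With 2 libraries a group that is a single value, so whether the numbers pair the libraries cannot be told from it.

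With 1 library left out, the log2 fold change ran from -0.55 to 0.042 for Per3, -0.21 to 0.53 for Dbp, -0.13 to 0.20 for Tef, -0.21 to 0.36 for Nr1d1 and -0.12 to 0.53 for Clock, so each changed sign. Without Ctrl 2, Dbp, Tef and Nr1d1 were below 0 and Per3 above. Without Il33flx 1, Nr1d1 and Clock were below 0. Without Il33flx 2, Tef was below 0 and Per3 above. Without Ctrl 1, Clock was below 0. Tef was -0.0030 with DESeq2. The directions of Per1, Per2, Nr1d2, Arntl and Cry1 held throughout. Their groups lay apart, so with unchanged scaling leaving out 1 library could not reverse these directions. The ranges over all alternatives were, in that order, -0.64 to -0.15, 0.52 to 1.06, -0.74 to -0.28, -0.26 to -0.11 and 0.20 to 0.32. Depth limits Nr1d1 and Dbp most, with 61 to 206 counts a library.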

Other observations

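Clock, chosen here after its values were seen, had a pattern that set Ctrl 1 and Il33flx 2 below Ctrl 2 and Il33flx 1, across the genotypes. Its levels were 9.51 and 11.1 CPM in the first pair and 14.7 and 16.6 CPM in the second. Csnk2a1, the gene of a casein kinase 2 catalytic subunit, split the libraries in the same way, at 16.9 and 24.2 against 47.8 and 43.5 CPM. So did the summed level of the 13 mRNAs encoded by mitochondrial DNA, at 543 and 927 CPM against 1778 and 1574 CPM. By the measure of likeness used for Dbp and Arntl, the genes nearest to Clock were Tgtp1, an interferon-induced GTPase gene (root mean square difference 0.028), Aph1b, a subunit gene of gamma-secretase (0.036), and the zinc finger gene Zfp26 (0.055). Csnk2a1 was named outside the rule for other clock genes. The share of all genes that split the libraries in this way was not counted. What sets these pairs of libraries apart was not tested.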
